A study of Homo sapiens with 2 samples.

Results

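The genes described here are 46 genes of mitosis, spindle assembly and cytokinesis, taken from a list that named each of them. A member was found on the array through the RefSeq accession of its probes. Of the 46 genes, 45 had a matched probe and all 45 were measured, out of 14046 genes measured among 19736 with a matched probe. UBE2C, the ubiquitin-conjugating enzyme of the anaphase-promoting complex, had no matched probe and has no value here.

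The RNA came from RWPE-1, an immortalised, noncancerous prostate epithelial cell line kept in serum-free keratinocyte medium. Cells of one group had received Pre-miR-424 at 30 nM, a precursor that supplies the microRNA miR-424, and those of the other Negative control #1 at the same dose, so both groups had been transfected. Amplified RNA of the pair was hybridised to 2 Agilent two-colour arrays, with pre-miR-424 RNA in Cy5 and control RNA in Cy3 under normal labelling and with the dyes exchanged in the dye swap. The design describes these arrays as technical replicates, so the comparison rests on 1 replicate and is given in sizes, with no p-value. The labels give neither the time between transfection and harvest nor a separate culture for each array, and a value repeated on both arrays speaks to labelling and hybridisation alone.

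A cell enters mitosis when the kinase CDK1 is activated by cyclins, and a spindle of microtubules then captures the chromosomes at their kinetochores. The spindle checkpoint holds back the anaphase-promoting complex until every chromosome is attached, after which separase frees the sister chromatids and the central spindle directs division of the cytoplasm. Most of these genes are transcribed in G2 and M phase in any dividing cell, and their mRNAs are widely used as markers of proliferation, in epithelial cells as elsewhere.

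The transfected agent is given first, because its seed, bases 2 to 8 of the mature microRNA, defines its family. The label does not say which arm of the precursor is meant, so both mature arms are printed as RefSeq gives them (GRCh38.p14, minus strand, chrX:134546680-134546701 for the 5p arm and chrX:134546644-134546664 for the 3p arm). Capitals mark the seed.
hsa-miR-424-5p: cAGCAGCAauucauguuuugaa
hsa-miR-424-3p: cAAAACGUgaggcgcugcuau
The seed of the 5p arm is shared by miR-15a, miR-15b, miR-16, miR-195, miR-497 and miR-6838, of which the first and the third are printed for comparison.
hsa-miR-15a-5p: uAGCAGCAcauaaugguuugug
hsa-miR-16-5p: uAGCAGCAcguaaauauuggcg

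Promoters of mitotic genes commonly hold a CCAAT box, bound by NF-Y, and a short element with the letters TTTGAA or TTCGAA, bound by complexes that contain LIN54. Of the members, 38 had an entry in the RefSeq promoter table, which covers 250 bases before and 50 bases after the start of a gene. The others were AURKA, BIRC5, BUB3, FOXM1, RACGAP1, TPX2, TTK and UBE2C. Searched on both strands, CCAAT was found in 32 of these 38 promoters, and in 35.7% of the 27305 promoters in the table. TTTGAA was found in 29 of the 38 (15.4% of all promoters), TTCGAA in 2 (1.45%), and CCAAT together with either of the others in 26 (6.58%). The promoters of PLK1 and KIF14 are shown because these genes had the lowest and the highest ratio of the members, a choice made after the values were seen, and both hold a CCAAT and a TTTGAA. Capitals mark the matches, CCAAT and TTTGAA on the printed strand and TTCAAA for TTTGAA on the other strand, and no 2 matches overlap in these promoters. That of PLK1 is chr16:23678639-23678938 on the plus strand and that of KIF14 chr1:200620702-200621001 on the minus strand, in GRCh38.p14.
PLK1: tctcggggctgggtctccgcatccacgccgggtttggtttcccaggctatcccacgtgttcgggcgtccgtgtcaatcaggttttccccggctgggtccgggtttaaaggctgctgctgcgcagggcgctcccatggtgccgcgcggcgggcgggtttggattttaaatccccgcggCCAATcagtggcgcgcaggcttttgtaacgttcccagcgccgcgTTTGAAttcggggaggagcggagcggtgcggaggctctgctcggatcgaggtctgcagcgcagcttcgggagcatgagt
KIF14: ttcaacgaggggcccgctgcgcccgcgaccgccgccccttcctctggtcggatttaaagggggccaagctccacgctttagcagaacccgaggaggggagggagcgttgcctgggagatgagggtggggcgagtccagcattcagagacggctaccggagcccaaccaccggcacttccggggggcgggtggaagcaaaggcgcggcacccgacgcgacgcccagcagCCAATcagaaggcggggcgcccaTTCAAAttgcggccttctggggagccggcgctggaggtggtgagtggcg
A match describes these letters and not binding. The 26 members whose promoter held both kinds of match had a median log2 ratio of 0.0029 and a range from −0.47 to 0.36, and the other 12 had a median of −0.0058 and a range from −0.25 to 0.16.

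The scanner software marked 66.8% to 70.1% of spots in the 4 array channels as well above background, and no spot was saturated. All 11 epithelial markers examined were measured, among them the basal keratins KRT5 and KRT14 and the basal transcription factor TP63. Of markers of other cell types, 2 of 5 fibroblast, 1 of 3 endothelial and 2 of 4 leukocyte markers were measured. Several keratins differed between the arrays. KRT5 read 0.09 under normal labelling and −1.09 on the dye swap, KRT18 read 0.73 and −0.55, and KRT14 read 0.0029 and −0.43.

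The first question was whether mRNAs of the mitotic machinery differed between pre-miR-424 and control cells. After loess normalization within each array their median ratio lay close to 0, and single genes differed by less than 1.5-fold on both arrays alike. The log2 ratio of pre-miR-424 over control had a median of −0.0030 under normal labelling and 0.0043 on the dye swap over the 45 genes. The median of the 2-array means was −0.00091, beside −0.0040 over all measured genes. With median centring in place of loess the medians by array were 0.258 and −0.358, beside 0.130 and −0.226 over all measured genes. On both arrays alike, 0 members were at least 1.5-fold higher (0.619% of all measured genes were) and 0 were at least 1.5-fold lower (0.399%), and none reached 2-fold in either direction (0.0783% and 0.0356%). The means of the members ran from −0.47 for PLK1, the kinase that drives mitotic entry and many later steps, to 0.36 for KIF14, a kinesin of the midbody. In RNA from a whole culture, fewer cells in mitosis and less RNA per cell cannot be told apart.

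Of the 45 genes, 11 were higher on both arrays (24.4%, with 26.9% of all measured genes), 12 were lower on both (26.7%, with 26.8%), and 22 had opposite signs. The same sign on both arrays was thus found for 51.1% of the members and for 53.6% of all genes. The counts by role below are to be read beside the same shares of all genes, 26.9% higher and 26.8% lower. At a lower threshold, a log2 ratio of 0.32 in size on both arrays, 0 members were higher (2.41% of all genes) and 1 was lower, PLK1 (2.31%). By the same threshold no member followed the dye (1.65% of all genes did), that is, appeared higher in whichever RNA carried one dye. The spread of the means was 0.16 (SD over the 45 genes), against 0.20 over all genes, and 38 members (84.4%) had a mean under 0.2 in size, against 76.7% of all genes. Between the arrays, which share both RNAs, the ratios of the members had a Pearson r of 0.277 and a Spearman rho of 0.164, and those of all genes an r of 0.214 and a rho of 0.169. With median centring in place of loess the r turned to −0.022 for the members and −0.134 for all genes, and with the scanner software's log ratio it was 0.318 and 0.308.

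**Figure D1:**
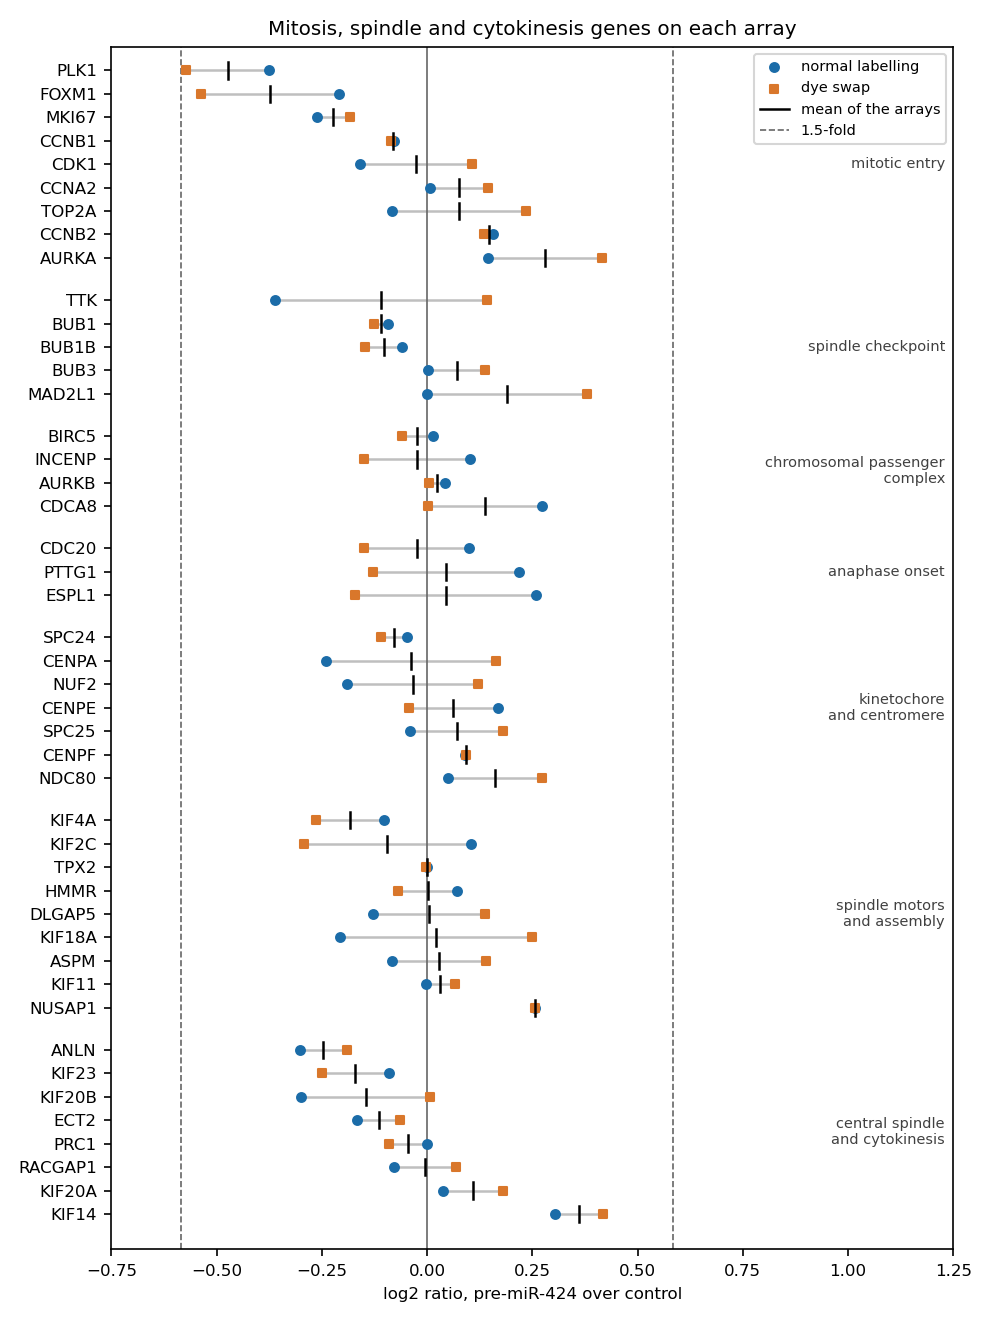
Log2 ratio of pre-miR-424 over control (x axis) for each of the 45 measured genes (y axis, grouped by role and ordered by mean), with a circle for normal labelling, a square for the dye swap, a tick for their mean and dashed lines at 1.5-fold. No gene passes 1.5-fold on both arrays, and 22 genes have their marks on opposite sides of 0.

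Among the genes of mitotic entry, the lowest values belonged to PLK1, FOXM1 and MKI67 and the highest to AURKA. The log2 level of PLK1 was 11.43 with pre-miR-424 and 11.80 in control under normal labelling, and 11.16 and 11.74 on the dye swap. Both control channels were above both pre-miR-424 channels, and the ratios were −0.38 and −0.57, a mean of −0.47 with a between-array SD of 0.14 (1.39-fold lower). The 2 spots of this probe gave −0.43 and −0.32 under normal labelling and −0.54 and −0.60 on the dye swap. A second, dimmer probe of PLK1 read −0.27 and −0.47, so all 4 readings of the gene were below 0 and none reached 1.5-fold.

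FOXM1 encodes a transcription factor that activates many G2 and M phase genes. Its log2 level was 11.26 with pre-miR-424 and 11.47 in control under normal labelling, and 10.95 and 11.49 on the dye swap. The ratio was lower on the dye swap (−0.54) than under normal labelling (−0.21), with a mean of −0.37 and a between-array SD of 0.23, so the distance between the arrays was nearly as large as the mean itself. MKI67 encodes Ki-67, the protein that coats mitotic chromosomes and serves as a proliferation marker. Its brightest probe read −0.26 and −0.18, and its dimmer probes read −0.28 and −0.29, and −0.42 and −0.41. Its 3 probes were thus below 0 on both arrays, with means from −0.41 to −0.22. The dimmer probes were each read from a single spot at log2 levels from 7.11 to 8.50, and they gave the larger falls.

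AURKA, the kinase of centrosome maturation, had a log2 level of 14.82 with pre-miR-424 and 14.68 in control under normal labelling, and 15.10 and 14.68 on the dye swap. Its ratios were 0.14 and 0.42, a mean of 0.28 with a between-array SD of 0.19. The mitotic cyclins and their kinase lay closer to 0. CCNB1, the main cyclin of CDK1, read −0.08 and −0.09 over 8 spots, and its dimmer probe read −0.04 and −0.22. The SD over those 8 spots was 0.079 under normal labelling and 0.094 on the dye swap, about as large as the ratios. CCNB2, a relative of CCNB1, read 0.16 and 0.13. CDK1 itself had opposite signs, at −0.16 and 0.11 over 10 spots, as did TOP2A, the topoisomerase that disentangles chromosomes, at −0.08 and 0.24. CCNA2, the cyclin of S phase and early mitosis, read 0.01 and 0.14. The 9 genes of this role had a median of −0.026, and 3 were higher and 4 lower on both arrays. That median was −0.082 under normal labelling and 0.11 on the dye swap, so its sign turned between the arrays.

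**Figure D2:**
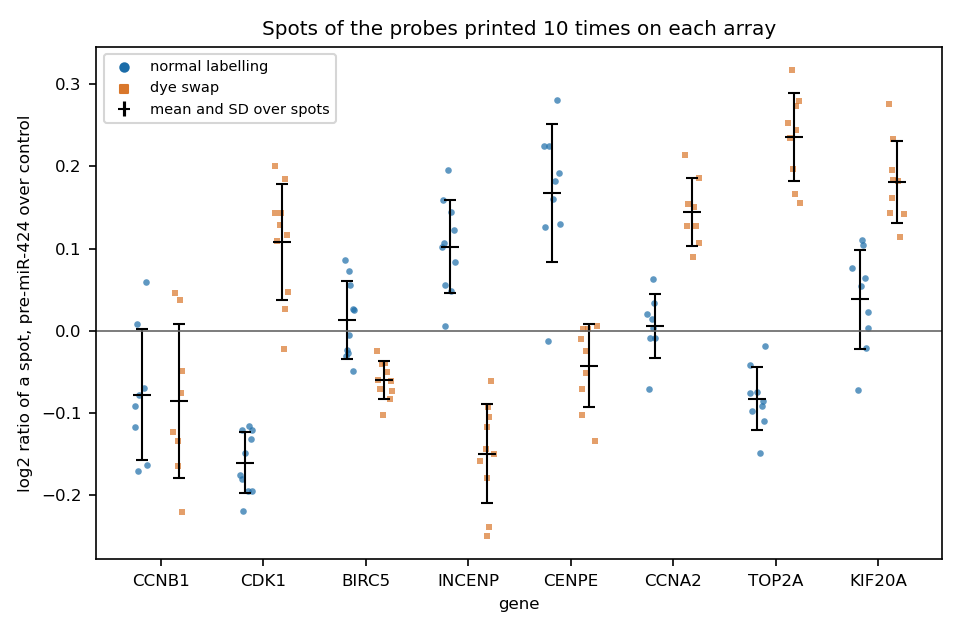
Log2 ratio of every spot used (y axis) for the 8 members whose probe is printed 10 times on each array (x axis), with the mean and SD over spots drawn for each array. The distance between circles (normal labelling) and squares (dye swap) exceeds the SD over spots in genes such as CDK1, TOP2A and INCENP, while CCNB1 overlaps itself.

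The probes printed 10 times show how much of the disagreement lies within an array. Over the 8 such members the median SD between spots was 0.052 on both arrays, beside 0.066 over all 763 such probes. The between-array SD of the same genes reached 0.22, for TOP2A. For CDK1, TOP2A, INCENP, CENPE and BIRC5, whose signs differed, the distance between the arrays was larger than the SD of their spots on either array. It was also larger for CCNA2 and KIF20A, whose signs did not differ, and smaller for CCNB1. The difference between the arrays divided by 2 was −0.16 for TOP2A and −0.13 for CDK1. That value holds any effect of the dye together with other differences between the arrays, which the design cannot separate.

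The spindle checkpoint genes had a median of −0.10, and on both arrays 1 was higher and 2 were lower. On the single arrays the median was −0.059 under normal labelling and 0.14 on the dye swap. BUB1, the kinase that recruits checkpoint proteins to kinetochores, read −0.09 and −0.13, and BUB1B, a subunit of the mitotic checkpoint complex, read −0.06 and −0.15. TTK, the kinase at the head of the checkpoint, went from −0.36 under normal labelling to 0.14 on the dye swap, the widest gap between arrays of any member. MAD2L1, which inhibits CDC20, was at −0.00084 under normal labelling and 0.38 on the dye swap, so its mean of 0.19 came from the swap alone. BUB3, the partner of BUB1 and BUB1B, was the 1 gene counted as higher. Its brightest probe read 0.0025 and 0.14, while its dimmer probe read −0.17 and 0.18.

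In the chromosomal passenger complex, which corrects wrong attachments of chromosomes, all 4 genes lay between −0.02 and 0.14 in their means. AURKB, its kinase, read 0.04 and 0.00. CDCA8, which encodes borealin, read 0.27 under normal labelling and 0.00 on the dye swap, and the scaffold INCENP read 0.10 and −0.15 and BIRC5, encoding survivin, 0.01 and −0.06. At anaphase onset, CDC20 (the activator of the anaphase-promoting complex), PTTG1 (securin) and ESPL1 (separase) all had opposite signs. ESPL1 had the most distant pair of these, at 0.26 and −0.17, and all 3 were positive under normal labelling and negative on the dye swap. Their means lay between −0.02 and 0.04, and their median went from 0.22 to −0.15. In the passenger complex it went from 0.072 to −0.029.

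Among the kinetochore and centromere genes the median was 0.062, and on both arrays 2 were higher and 1 was lower. The sign of this median turned too, from −0.041 under normal labelling to 0.12 on the dye swap, and with median centring in place of loess it was 0.000069. The 4 subunits of the NDC80 complex, which binds microtubules, did not share a direction. NDC80 read 0.05 and 0.27, SPC25 −0.04 and 0.18, NUF2 −0.19 and 0.12, and SPC24 −0.05 and −0.11. SPC25 and SPC24 were each read from a single spot, and SPC24 was dim, at log2 levels from 8.05 to 8.20. CENPF, a protein of the outer kinetochore, read 0.09 on either array with its brightest probe, while its dimmer probe read −0.31 and 0.32. CENPA, the histone H3 variant that marks centromeres, read −0.24 and 0.16, and the kinesin CENPE read 0.17 and −0.04.

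Of the spindle motors and assembly factors, NUSAP1 and KIF4A stood farthest from 0, and the median of the 9 genes was 0.0048 (by array −0.0030 and 0.066). NUSAP1, which bundles and stabilises spindle microtubules, read 0.26 on either array from a single spot. Its log2 level was 13.78 with pre-miR-424 and 13.53 in control under normal labelling, and 13.83 and 13.57 on the dye swap. KIF4A, a kinesin carried on chromosomes, read −0.10 and −0.26, and its second probe read −0.09 and −0.31. For the other 7 genes the signs differed between the arrays. TPX2, the activator of AURKA on the spindle, was within 0.01 of 0 on both, and KIF11, the kinesin that separates the spindle poles, read −0.0030 and 0.07. KIF18A, which damps chromosome oscillations, read −0.21 and 0.25, and KIF2C, a microtubule depolymerase, read 0.10 and −0.29. HMMR, DLGAP5 and ASPM, spindle assembly and pole proteins, had means between 0.00 and 0.03, and the probes of ASPM were the only ones of a member to differ in the sign of their mean, at 0.03 and −0.01.

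The widest range outside mitotic entry was found in the central spindle and cytokinesis genes, with a median of −0.080. It was below 0 on either array, at −0.084 and −0.028, and on both 2 of the 8 were higher and 4 were lower. KIF14 had a log2 level of 12.77 with pre-miR-424 and 12.47 in control under normal labelling, and 12.84 and 12.42 on the dye swap. Both pre-miR-424 channels were above both control channels, and the ratios of 0.30 and 0.42 gave a mean of 0.36 with a between-array SD of 0.08 (1.28-fold higher). ANLN, which encodes the contractile ring scaffold anillin, lay on the other side, with log2 levels of 12.43 and 12.73 under normal labelling and 12.54 and 12.73 on the dye swap for pre-miR-424 and control. Its ratios were −0.30 and −0.19, a mean of −0.25 with a between-array SD of 0.08. The spots of KIF14 ranged from 0.23 to 0.42 and those of ANLN from −0.31 to −0.18.

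Partners within a complex did not always read alike. KIF23 and RACGAP1 form centralspindlin, and KIF23 read −0.09 and −0.25 while RACGAP1 read −0.08 and 0.07. The second probe of KIF23 had opposite signs, at −0.23 and 0.10. ECT2, the exchange factor that activates RhoA at the cleavage furrow, read −0.17 and −0.06, and PRC1, which bundles central spindle microtubules, read −0.00032 and −0.09. Of the related kinesins, KIF20A read 0.04 and 0.18 and KIF20B, from a single spot, −0.30 and 0.01.

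**Figure D3:**
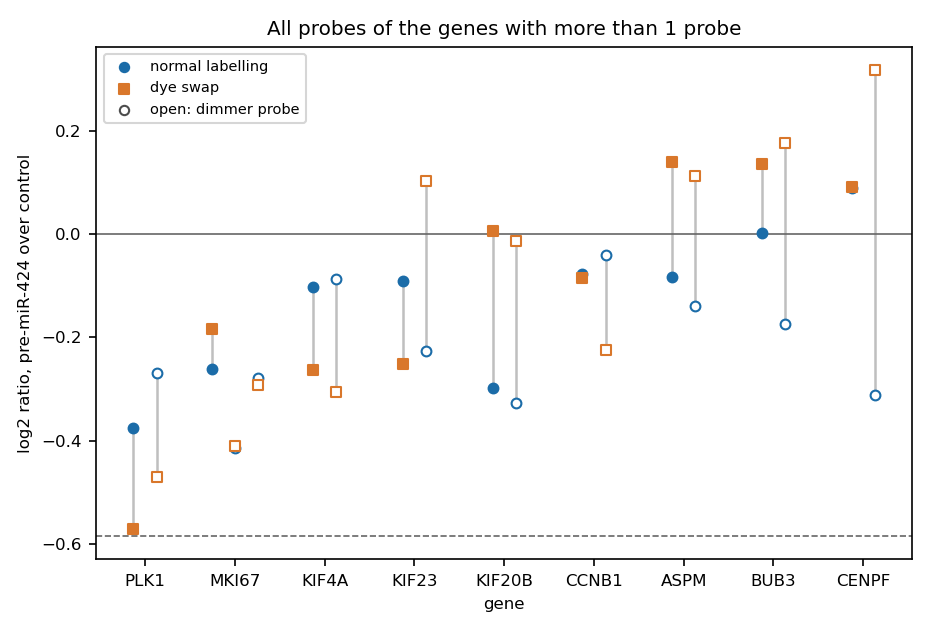
Log2 ratio of pre-miR-424 over control (y axis) for every measured probe of the 9 members with more than 1 probe (x axis), with circles for normal labelling, squares for the dye swap, open marks for dimmer probes and a dashed line at 1.5-fold lower. All probes of PLK1, MKI67, KIF4A and CCNB1 lie below 0 on both arrays, and the means of a gene's probes differ by at most 0.19, for MKI67.

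Taking a mean of at least 0.2 in size with the same sign on both arrays, a limit chosen after the values were seen, 3 members were higher (KIF14, AURKA and NUSAP1) and 4 were lower (PLK1, FOXM1, ANLN and MKI67). That is 6.67% and 8.89% of the members, beside 11.0% of all measured genes in each direction. Just under that limit were MAD2L1 at 0.19 and KIF4A at −0.18.

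Genes of mitosis outside the list of members were compared next, in 5 lists taken from general knowledge. Of 79 such genes 78 were measured, all but KIF18B. Their median was −0.0061 (by array −0.056 and 0.012). On both arrays 16 were higher and 26 lower, beside 26.9% and 26.8% of all measured genes. Past 1.5-fold there were 0, beside 0.619% higher and 0.399% lower of all measured genes. The highest were KIFC1, a minus-end kinesin, at 0.51 and 0.49, and CKAP2, a spindle protein, at 0.35 on either array with its brightest probe and −0.04 and 0.63 with its dimmer one. Both of the lowest were subunits of the anaphase-promoting complex, ANAPC13 at −0.70 and −0.38 and ANAPC2 at −0.26 and −0.44, while the 15 genes of that complex and its regulators had a median of −0.0084 (by array −0.050 and 0.0046). At the lower threshold of 0.32 in log2 ratio, 3 of the 78 genes were higher and 1 was lower on both arrays. Of all measured genes, 2.41% and 2.31% were.

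The lists for condensin, cohesin and other kinetochore genes had medians of −0.041, −0.068 and 0.0076. Between normal labelling and dye swap the sign turned for condensin (−0.15 and 0.044) and for the other kinetochore genes (−0.054 and 0.083), while cohesin read −0.036 and −0.020. Of cohesin, the ring that holds sister chromatids together, and its protectors, the list had 7 of its 12 genes lower on both arrays, with values from −0.19 to 0.25. The share of all measured genes lower on both arrays was 26.8%, and 26.9% were higher. The 14 regulators that act on the promoter elements described above, among them MYBL2, LIN54 and the NF-Y subunits, had a median of −0.032 (by array −0.045 and 0.0047), and on both arrays 4 were higher and 6 were lower, with none past 1.5-fold.

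Genes of earlier steps of the cell cycle were set beside these. The cyclins and kinases of G1, which drive cells towards S phase, had a median of −0.52 over 8 measured genes (by array −0.55 and −0.49). Lower on both arrays were 6 of the 8 and 1 was higher, beside 26.8% and 26.9% of all measured genes. Past 1.5-fold on both were CCNE1, encoding cyclin E1, at −0.62 and −0.92, and CCND2, encoding cyclin D2, at −0.59 and −0.67. Of all measured genes, 0.399% were lower by that much on both arrays. Also lower on both arrays, but not past 1.5-fold on both, were CCND3 at −0.67 and −0.54, CCND1 at −0.53 and −0.54, CDK6 at −0.58 and −0.45 and CDK4 at −0.42 and −0.27. CCNE2 was higher, at 0.19 and 0.09, and its second probe read −0.02 and 0.49. CDK2 had opposite signs, at −0.07 and 0.21. The lowest value of a member on a single array was −0.57, for PLK1 on the dye swap. The 28 DNA replication genes had a median of 0.055 (by array 0.0078 and 0.078). On both arrays 11 of them were higher and 7 were lower, beside 26.9% and 26.8% of all measured genes. The 7 genes of G2 control, phosphatases and kinases that set the timing of CDK1 activation, had a median of −0.15, and 2 were higher and 4 were lower. On the single arrays the median was −0.00074 under normal labelling and −0.27 on the dye swap, with a different gene in the middle each time. Lower on both were CDC25A at −0.522 and −0.526, CHEK1 at −0.321 and −0.274, and WEE1 at −0.233 and −0.063. CDC25B, also lower, read −0.00074 and −0.462, so its mean came from the dye swap. CDC25C at 0.193 and 0.290 and CHEK2 at 0.012 and 0.046 were higher, and PKMYT1 read 0.061 and −0.305. With 1 replicate the difference between these lists and the mitosis genes was not tested, and the values are set side by side only.

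**Figure D4:**
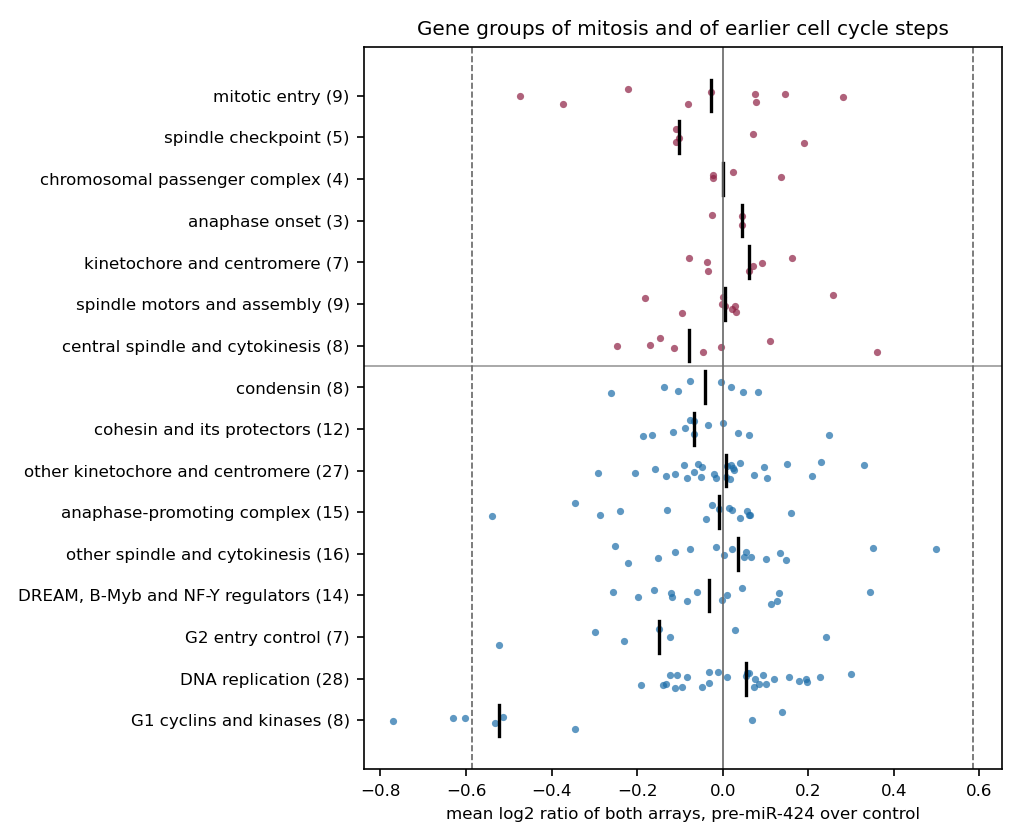
Mean log2 ratio of both arrays (x axis) for each gene of the 7 roles among the members (upper part) and of 9 other lists (lower part, below the line), with numbers of measured genes in brackets, a bar at each median and dashed lines at 1.5-fold. The medians of the 7 roles lie between −0.10 and 0.062, and that of the G1 cyclins and kinases at −0.52.

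**Figure D5:**
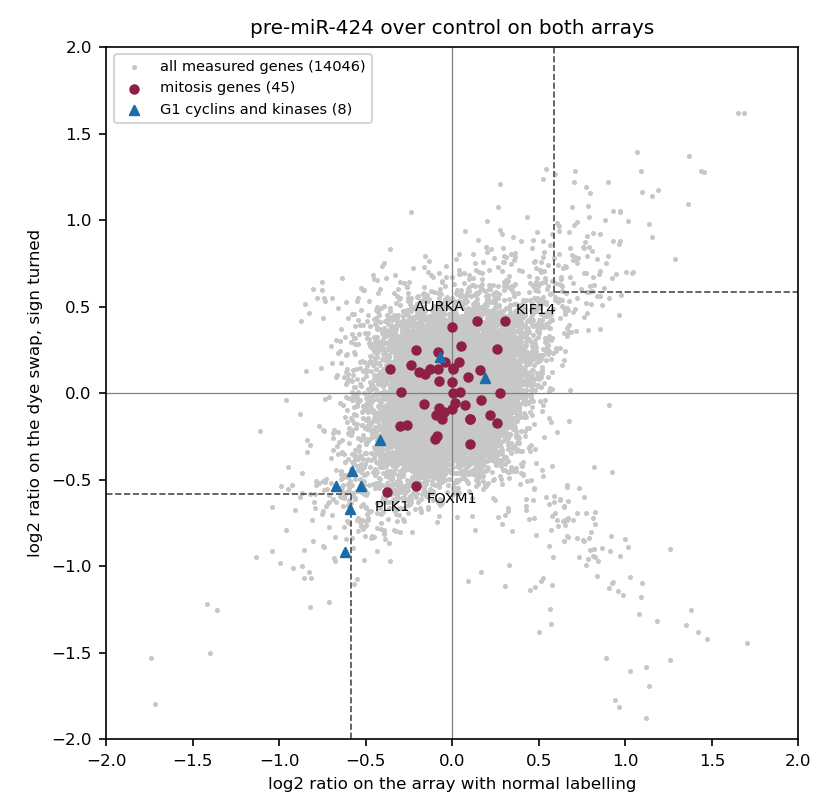
Log2 ratio of pre-miR-424 over control under normal labelling (x axis) and on the dye swap with its sign turned (y axis) for all 14046 measured genes (grey, 1 gene lies outside the range drawn), the 45 mitosis genes (red circles) and the 8 G1 cyclins and kinases (blue triangles), with dashed lines bounding the areas past 1.5-fold on both arrays. No mitosis gene lies in either area, and PLK1 comes nearest to the lower one.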

How the data were processed

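The scanner files deposited by the authors (Agilent Feature Extraction 10.7.3.1, per the file headers) hold each spot's median signal and background as linear intensity values, and a log10 ratio made by the software. A further table deposited by the authors holds log2 ratios, and for it the labels name limma without the steps. Its columns followed the unturned Cy5 over Cy3 values computed here (Pearson r of 0.991 and 0.988 over 42405 probes), with medians of 0.0236 and 0.0355. The centring behind these medians is not given in the sources used here.

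Median signals were corrected by normexp with an offset of 50, which draws dim ratios towards 0, and normalized by loess within each array (limma 3.58.1, R 4.3.3). Ratios were turned to pre-miR-424 over control. Levels were scaled between arrays by Aquantile. Spots with an outlier flag on either array were left out singly, a rule set after it was seen which members held such spots, other spots of a probe averaged, and a probe counted as measured when both dyes of both arrays were marked well above background. A gene was read from its brightest probe. A symbol was found for 25767 of the 27134 probes that carry a RefSeq accession (95.0%, GRCh38.p14, for names only, since the array design is on another build). Python 3.11.15 with pandas 2.3.3 was used, and the steps were tested on simulated data. The changes planted there were larger than the mean of any member, so that test does not cover changes of the size found here.

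A gene counted as changed at 1.5-fold or more in the same direction on both arrays. All members were named, with all probes of the 5 highest and 5 lowest. Of other lists, the changed genes and the 2 highest and 2 lowest mitosis genes were named. The 8 G1 cyclins and kinases and the 7 genes of G2 control were all named. Members and lists were chosen with earlier results of these data known. One list of cell type markers is not reported here. Alternatives were other background, normalization, filter, probe and threshold choices and each array alone. Precision is limited by there being only 2 arrays.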

Additional observations from a re-analysis of the deposited data

How the results depend on the processing

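Across 13 alternatives, PLK1 kept the lowest and KIF14 the highest value of the members. PLK1 ranged from −0.57 to −0.38, FOXM1 from −0.54 to −0.21, ANLN from −0.31 to −0.19, MKI67 from −0.31 to −0.18, KIF14 from 0.30 to 0.42, AURKA from 0.14 to 0.42 and NUSAP1 from 0.20 to 0.26. No member passed 1.5-fold under any of them or 2-fold in the main processing, and at the lower threshold, 0.32 in log2 ratio, 1 was lower. Median centring in place of loess moved the median of all genes to 0.130 and −0.226 on the arrays. It gave medians of −0.055 for the mitosis genes (by array 0.258 and −0.358), −0.061 for the other mitosis genes and −0.14 for the central spindle genes. It left 1 member higher on both arrays. Taken relative to the median gene of each array, an alternative chosen after seeing the data, 9 members were higher and 11 lower. The mitosis median was then −0.0066 (by array 0.129 and −0.132). That median was −0.016 with the scanner software's log ratio and −0.023 when whole probes with any outlier spot were left out, which was also chosen after seeing the data and removed 4 members. On single arrays under loess it ranged from −0.0030 to 0.0043, and the medians ranged from −0.056 to 0.012 for the other mitosis genes, −0.082 to 0.11 for mitotic entry, −0.15 to 0.22 for anaphase onset, −0.041 to 0.12 for the kinetochore, −0.059 to 0.14 for the spindle checkpoint, −0.029 to 0.072 for the passenger complex, −0.0030 to 0.066 for spindle motors and −0.084 to −0.028 for the central spindle. A single array had 20 to 24 members above 0 and 21 to 25 below. No paired analysis was possible because the arrays form 1 group and each ratio already pairs both RNAs on an array.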
